A study of Mus musculus with 12 samples.

Results

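Zmynd8, Ipo11, Lifr and Ktn1 are 4 mouse genes in which 1 or a few exon probes differed between the turns of the cochlea apart from the other probes of the gene. Each gene was followed through all probes that carry its name on the array, controls left out, put in order along the chromosome. A signal at 1 probe described Zmynd8. In Lifr the departure rose over probes 12 to 14 to a peak at probe 15, whereas 3 neighboring probes departed in Ipo11. In Ktn1 a run of 10 probes leaned 1 way relative to the rest of the gene, several of them no more than a typical probe. These 4 of 19506 gene names on the array had 23 probes for Zmynd8, 23 for Ipo11, 20 for Lifr and 33 for Ktn1, 99 of 165984 probes in all. The genes were picked on the turn differences of these probes in these same arrays, so their values by turn are given as a description and carry no test. The arrays measured RNA of the apical, middle and basal turn of the cochlea, 4 arrays per turn, from male C57BL/6 mice aged 6 weeks. The study names 4 mice as the source of every turn, so the turns share animals by its account. Each piece held lateral wall, including stria vascularis, spiral ligament and spiral prominence, with the organ of Corti and, as the study describes it, the spiral ganglion neurons. The labels name no treatment and no mutant allele, and they number the samples of a turn without tying a number to an animal. The 4 arrays of a turn shared 1 slide and no slide held 2 turns, so turn and slide cannot be told apart.

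The 4 genes act in different parts of the cell. Zmynd8 encodes a chromatin reader that binds acetylated and methylated histone tails and works with the NuRD complex, which removes acetyl groups from histones and remodels nucleosomes. Ipo11 encodes importin-11, a member of the importin beta family, which carries proteins such as the ubiquitin-conjugating enzyme Ube2e3 through the nuclear pore. Lifr encodes the receptor subunit for leukemia inhibitory factor, which pairs with gp130 (Il6st) on the cell surface and signals through JAK kinases and Stat3. Mice also make a soluble form of this receptor from a shorter transcript. Ktn1 encodes kinectin, a long coiled-coil protein of the endoplasmic reticulum that binds the motor kinesin, and its transcripts are known to vary in small exons toward the 3′ end. On an exon array each probe reads 1 stretch of a transcript, so transcripts that begin, end or are spliced differently can give unlike values along a gene.

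The probes that differed most are shown here with a neighbor that did not, since the step between them is the pattern described below. Sequences are those of the array's probes, 60 bases each, in mm9 coordinates, written 5′ to 3′ along the transcript, with probes numbered from the 5′ end of the gene. Zmynd8 probe 1 lies at chr2:165710108-165710167 on the minus strand, at position 21 of the transcript to which the array assigns it. Its last 30 bases are given, with an ATG in capitals that is followed by no stop codon in its frame up to the end of the probe. Probe 2 lies at chr2:165701205-165701264.
Zmynd8 probe 1, last 30 bases: cattacacagttaacaATGcatccacagag
Zmynd8 probe 2: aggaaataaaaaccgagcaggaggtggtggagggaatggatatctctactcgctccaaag

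Ipo11 probes 20 to 23 lie on the minus strand at chr13:107632169-107632228, chr13:107613036-107613095, chr13:107602306-107602365 and chr13:107584538-107584597. Probes 21 to 23 formed the step at the 3′ end of the gene, and probe 20 was the last that did not take part in it. Of probe 23 the first 30 bases are given, with stop codons of the forward frames in capitals.
Ipo11 probe 20: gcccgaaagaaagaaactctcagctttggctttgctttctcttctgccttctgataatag
Ipo11 probe 21: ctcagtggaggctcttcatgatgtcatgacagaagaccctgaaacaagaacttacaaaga
Ipo11 probe 22: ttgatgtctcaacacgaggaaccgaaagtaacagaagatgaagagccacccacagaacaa
Ipo11 probe 23, first 30 bases: ggaacccaTAGtgtctacggatataTGAtg

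Lifr probe 15 lies on the plus strand at chr15:7135072-7135131, and Ktn1 probes 29 and 30 lie on the plus strand at chr14:48345922-48345981 and chr14:48346170-48346229. The Lifr sequence is shown for its stop codons, which are in capitals as for Ipo11 probe 23. Ktn1 probe 30 is shown beside its 5′ neighbor.
Lifr probe 15, first 30 bases: TAAaaacttggaaatgtatccaggccTAAc
Ktn1 probe 29: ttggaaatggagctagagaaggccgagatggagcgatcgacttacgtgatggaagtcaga
Ktn1 probe 30: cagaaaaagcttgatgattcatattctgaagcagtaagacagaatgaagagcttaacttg

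Signal below is the processed spot intensity after each array was scaled to the same 75th percentile. The relative signal of a probe is its log2 signal minus the mean log2 signal of the other probes of its gene on the same array, so it does not move when a whole array is scaled. Within a gene the relative differences between turns therefore offset each other, and probes high in the base push the rest down. Brightness depends on the probe as well as on the RNA, so only differences of 1 probe between turns are compared, not the levels of different probes. All 99 probes were well above background on all 12 arrays and no spot was saturated. Over all genes with 3 or more probes, a probe was called when limma's F test over the turns had an adjusted p under 0.05 and 2 turn means of its relative signal differed by 1 log2 unit or more. This called 1516 of 159900 probes, or 0.948%. By the same measure 1 of 23 Zmynd8 probes, 3 of 23 Ipo11 probes, 1 of 20 Lifr probes and 0 of 33 Ktn1 probes passed, and since the genes were picked on this contrast nothing is read from these counts. All 5 of these probes were higher in the base, the direction of 0.507% of all probes, and none was higher in the apex, the direction of 0.357%. Scaling the arrays to their spike-in probes instead moved the median difference between base and apex over all genes from 0.04 to 0.52 log2 units, so small differences in signal described as lower in the base change sign under that scaling, while differences in relative signal do not.

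Counted by arrays that did not overlap, all basal arrays lay above all apical arrays in 17.1% of all probes and below them in 17.3%. In Zmynd8 this held for 2 probes above and 6 below of 23, in Ipo11 for 3 and 8 of 23, in Lifr for 1 and 17 of 20, and in Ktn1 for 2 and 25 of 33. On the relative scale the shares over all probes were 10.5% above and 7.79% below, and the counts were 2 and 9 in Zmynd8, 3 and 10 in Ipo11, 4 and 5 in Lifr, and 8 and 10 in Ktn1. The high probes of a gene push its other probes down on this scale, which can add to the counts below. By mean alone, 19 of 23 Zmynd8 probes, 20 of 23 Ipo11 probes, 17 of 20 Lifr probes and 27 of 33 Ktn1 probes had a lower signal in the base than in the apex.

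**Figure D1:**
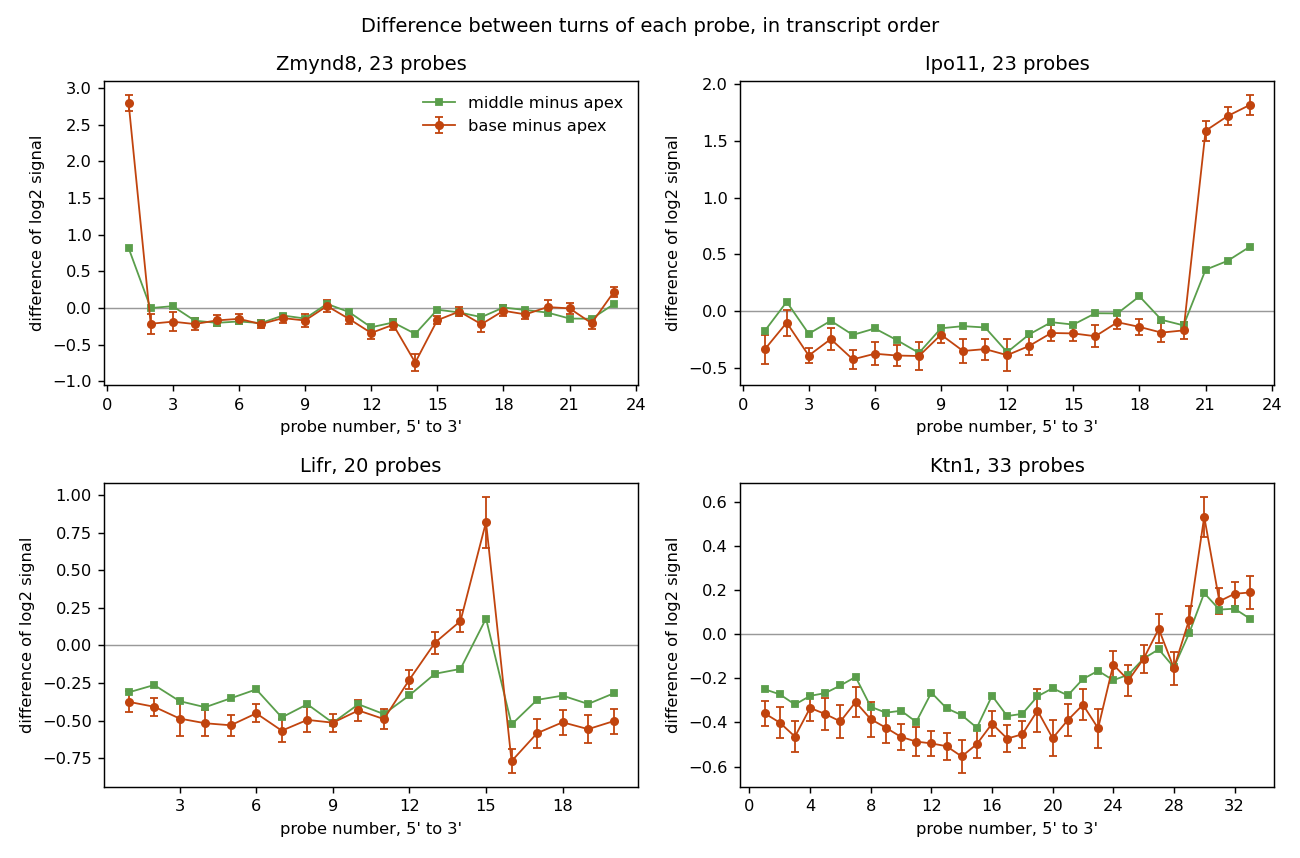
Difference of log2 signal between turns for each probe of the 4 genes, in transcript order (x axis, probe number from the 5′ end). Red circles are base minus apex with the SE of the difference (4 arrays per turn), green squares middle minus apex, and the gray line marks no difference. Zmynd8 departs at its first probe, Ipo11 at its last 3, and Lifr at probe 15 after 3 probes that lean the same way. Ktn1 shifts upward unevenly over its last 10 probes, some still lower in the base, with a peak at probe 30.

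Zmynd8 differed at its first probe, with a 6.94-fold higher signal in the base than in the apex. The signal of probe 1 was 204, 195, 197 and 204 on the apical arrays, 324, 330, 387 and 372 on the middle arrays, and 1416, 1176, 1279 and 1741 on the basal arrays. No array of a turn overlapped with those of another, and the middle turn lay between the ends. The base exceeded the apex by 2.80 log2 units (SE 0.111, n = 4 per turn), the base exceeded the middle 3.94-fold, and the middle exceeded the apex 1.76-fold. On the relative scale the base exceeded the apex by 2.95 log2 units, a difference that 0.0163% of all probes tested reached or passed between any 2 turns.

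The other 22 Zmynd8 probes differed little between turns. Their difference between base and apex had a median of -0.17 log2 units and ran from -0.74 to 0.22. Their geometric mean signal was 781 in the apex, against 727 in the middle and 702 in the base. Averaged over all 23 probes, the Zmynd8 gene signal was 736 in the apex and 723 in the base. This is a difference of -0.03 log2 units, so a value per gene did not show probe 1. Probe 14, at chr2:165633128-165633187, had the next largest relative difference and the opposite direction. It gave 415, 379, 409 and 315 in the apex and 238, 181, 248 and 242 in the base. Its relative difference was -0.75 log2 units, with all apical arrays above all basal arrays.

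**Figure D2:**
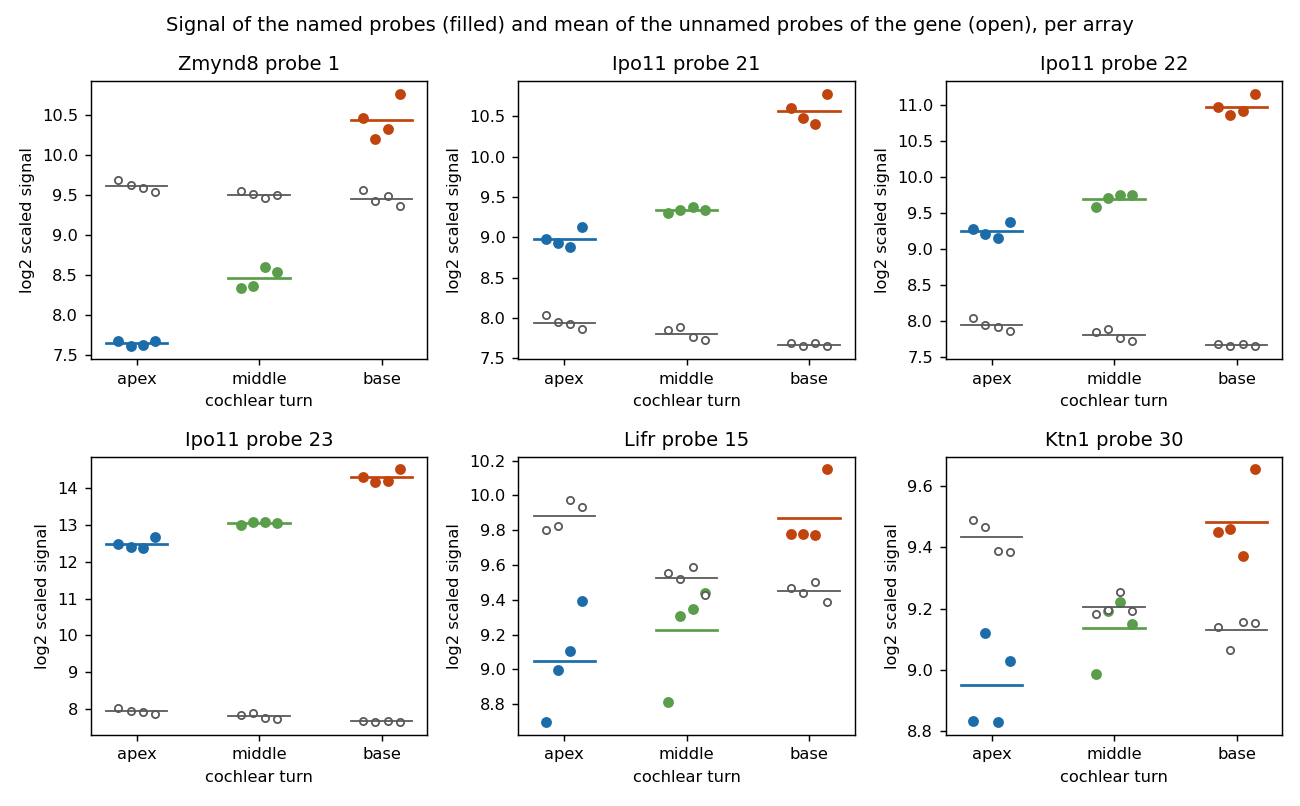
Log2 scaled signal per array (y axis) by cochlear turn (x axis) for the 6 probes described, as filled points, and for the mean of the remaining probes of the same gene outside these 6, as open points, with lines at the turn means (4 arrays per turn). The filled points are higher in every basal array than in every apical array in all 6 panels, while the open points are lower in the base than in the apex on average (not so with spike-in scaling); heights of filled and open points are not comparable with each other, since brightness depends on the probe.

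Ipo11 differed at its last 3 probes, all about 3-fold to 3.5-fold higher in the base than in the apex. Probe 21 gave 503, 487, 470 and 558 in the apex, against 633, 649, 663 and 648 in the middle, and 1551, 1424, 1348 and 1756 in the base. Probe 22 gave 618, 589, 569 and 666 in the apex, against 763, 832, 861 and 863 in the middle, and 1991, 1848, 1925 and 2274 in the base. Probe 23, the most 3′ probe, gave 5684, 5423, 5271 and 6494 in the apex, against 8098, 8564, 8692 and 8414 in the middle, and 20248, 18170, 18833 and 23245 in the base. In each of the 3 the arrays of the turns did not overlap, and the order was apex, middle, base. The fold of base over apex was 3.00 (log2 1.59, SE 0.0859) for probe 21, 3.29 (log2 1.72, SE 0.0805) for probe 22 and 3.52 (log2 1.81, SE 0.0894) for probe 23. The step lay mostly between middle and base, at 2.33-fold, 2.42-fold and 2.37-fold. Relative to the other Ipo11 probes the base exceeded the apex by 1.67, 1.81 and 1.91 log2 units, and 0.295%, 0.199% and 0.152% of all probes were as far apart.

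With the scaling used here, the first 20 Ipo11 probes went the other way. All 20 were lower in the base than in the apex, by -0.42 to -0.10 log2 units with a median of -0.28, and their geometric mean was 246 in the apex, against 224 in the middle and 204 in the base. The change of sign fell between probe 20, at -0.17 log2 units, and probe 21, at 1.59. They start at positions 2684 and 2780 of the same transcript as the array gives them. Spike-in scaling moved the Ipo11 gene-level difference from -0.01 to 0.47 log2 units, so the negative signs of the first 20 probes do not hold under it. On the relative scale, which scaling does not move, the first 20 probes ran from -0.43 to -0.09 and probe 21 stood at 1.67. The reference of the first 20 holds the 3 high probes, which pushes their relative values down, so nothing is read from these negative signs. Probe 20 gave 665, 640, 670 and 546 in the apex and 582, 560, 532 and 562 in the base, with overlap. The mean over all 23 Ipo11 probes was 303 in the apex, against 291 in the middle and 300 in the base, since the 3 high probes and the 20 low ones offset each other. These 3 probes share a gene and may share RNA molecules, so they are not 3 separate measurements of the turn.

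Lifr was lower in the base along most of its length, but not at probe 15. Probe 15 gave 415, 511, 551 and 673 in the apex, against 451, 634, 650 and 695 in the middle, and 877, 879, 873 and 1137 in the base. The basal arrays lay above all others, while apex and middle overlapped. The base exceeded the apex 1.77-fold (log2 0.82, SE 0.170), and by 1.25 log2 units on the relative scale, which 1.11% of all probes reached. The array assigns Lifr probes 1 to 15 to 1 transcript variant, of which probe 15 is the last, and probes 16 to 20 to another.

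The Lifr probes on either side of probe 15 did not behave alike. Probes 1 to 11 were lower in the base than in the apex by -0.57 to -0.37 log2 units. Probes 12, 13 and 14 then stood at -0.23, 0.02 and 0.16, and on the relative scale all basal arrays lay above all apical arrays in each of these 3. Probe 14 gave 1090, 1108, 1238 and 1243 in the apex and 1290, 1301, 1215 and 1432 in the base, where the arrays overlapped on the scale of signal. Past probe 15 the values were again negative, at -0.77 to -0.50 in probes 16 to 20. Probe 16 gave 543, 592, 670 and 571 in the apex and 368, 326, 359 and 339 in the base, with no overlap. Over all 20 probes the Lifr gene signal was 918 in the apex, against 729 in the middle and 710 in the base, or -0.37 log2 units between base and apex and 0.12 with spike-in scaling.

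Ktn1 changed along a run of probes rather than at 1 probe. Probe 30 was the farthest out, with 455, 556, 455 and 522 in the apex, against 507, 585, 598 and 568 in the middle, and 700, 704, 662 and 806 in the base. The basal arrays lay above all others, and apex and middle overlapped. The base exceeded the apex 1.45-fold (log2 0.53, SE 0.0912) and by 0.84 log2 units on the relative scale, which 4.57% of all probes reached. It thus fell just short of the 1 log2 unit used above, as Zmynd8 probe 14 did at 0.75, while Lifr probe 15, at 1.25, was the nearest on the other side.

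The last 10 Ktn1 probes, 24 to 33, all had a positive relative difference between base and apex, from 0.07 to 0.84 log2 units. In 8 of the 10 all basal arrays lay above all apical arrays on the relative scale. Probes 24, 25, 26 and 28 stood at 0.14, 0.07, 0.17 and 0.13, below the median of 0.18 for the largest difference over all probes. Their signal was still lower in the base than in the apex. The first 23 all had a negative one, from -0.28 to -0.03, and on the scale of signal they were lower in the base by -0.55 to -0.31 log2 units. Relative differences within a gene offset each other, so the signs of the first 23 and the last 10 are not separate results. The last probe, 33, gave 446, 417, 395 and 428 in the apex and 513, 477, 444 and 491 in the base, which overlapped by 1 array each. The division after probe 23 was chosen after the values were seen. The Ktn1 gene signal over 33 probes was 684 in the apex, against 590 in the middle and 564 in the base. The base differed from the apex by -0.28 log2 units, or by 0.21 with spike-in scaling.

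**Figure D3:**
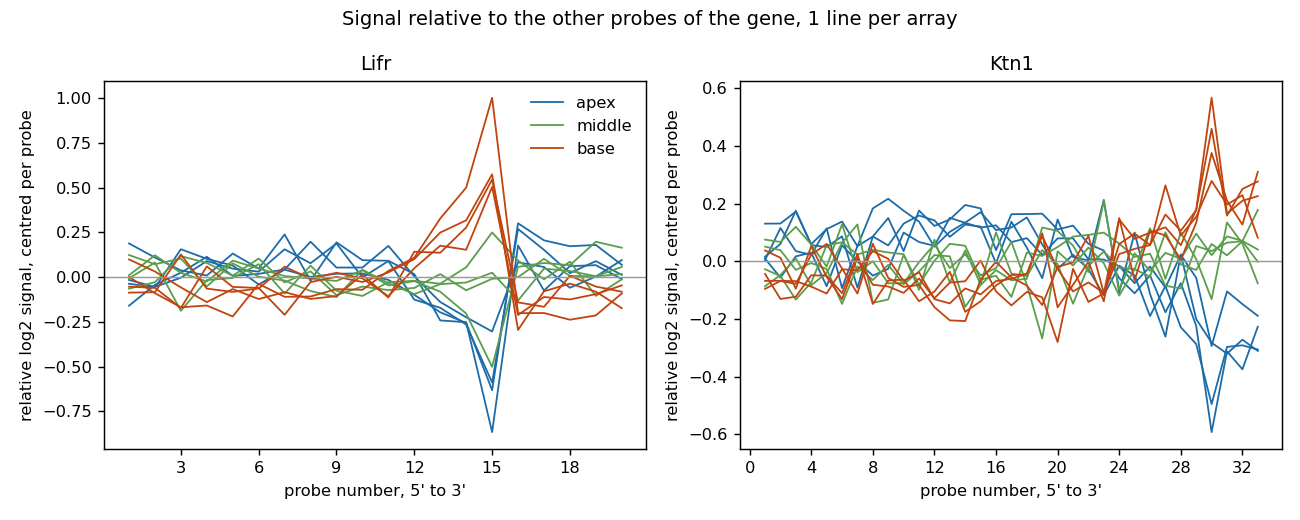
Relative log2 signal of each Lifr and Ktn1 probe, with the mean over the 12 arrays subtracted per probe (y axis), along the gene (x axis, probe number from the 5′ end), 1 line per array colored by turn. The basal arrays separate upward and the apical arrays downward at Lifr probes 13 to 15 and cross to the opposite order at probe 16. In Ktn1 the lines cross gradually, and at most probes toward the 3′ end the basal arrays lie above the apical ones.

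The 4 genes were set against the spread of all probes. The largest difference between turn means of the relative signal had a median of 0.18 log2 units over the 159900 probes, and 5% lay above 0.81. Ktn1 probe 30 was just past that mark and the Zmynd8 and Ipo11 probes were far out in the tail. At least 1 probe was called in 943 of 14904 genes, or 6.33%, so genes with a deviating probe were not rare on this array. Among genes with 1 transcript identifier and 8 or more probes, the first probe was called in 1.55%, the last in 1.26% and internal probes in 0.748%. Zmynd8 probe 1 was a first probe and Ipo11 probe 23 a last one. Lifr probe 15 was the last of its variant, but Lifr has more than 1 transcript identifier, so these shares do not cover it.

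**Figure D4:**
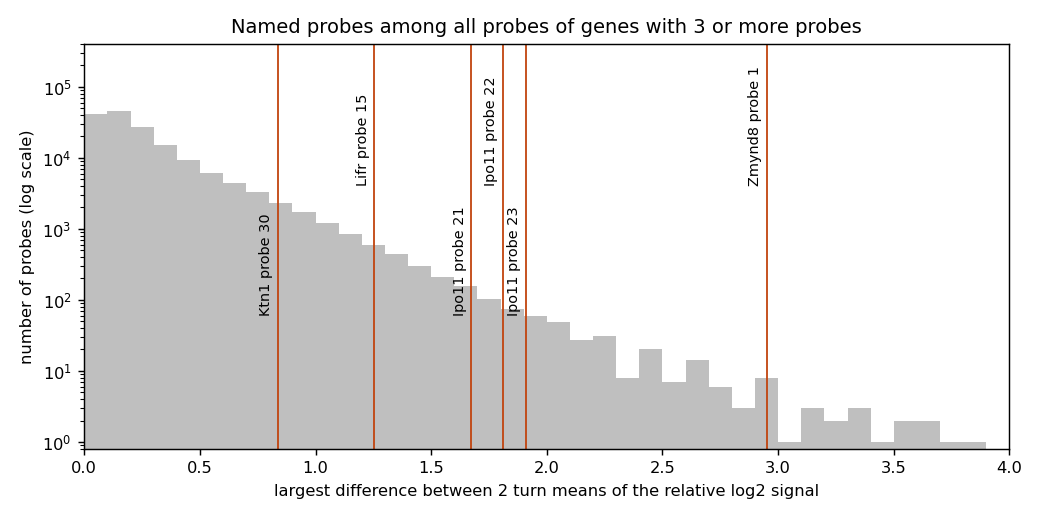
Number of probes (y axis, log scale) by the largest difference between 2 turn means of the relative log2 signal (x axis), over 159900 probes of genes with 3 or more probes. Red lines mark the 6 probes described, from Ktn1 probe 30 at 0.84 to Zmynd8 probe 1 at 2.95.

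Signal toward the 3′ end moved with the turn over the whole array, and Ipo11 and Ktn1 had their higher values in the base at that end. On each array the median of the 3′ minus the 5′ log2 signal of a gene was 1.11 to 1.23 in the apex, against 1.23 to 1.27 in the middle and 1.27 to 1.34 in the base. Per gene, the base minus apex difference of the last 3 probes exceeded that of the first 3 by a median of 0.15 log2 units over 6570 genes, with 90% of genes between -0.41 and 0.53. Ktn1 had 0.58, and 3.26% of genes were higher. Ipo11 had 1.98, and 0.0152% of genes were higher. Lifr, assigned to more than 1 transcript variant, had -0.10 and Zmynd8 -0.80, in the opposite direction to the median. The last 3 Ipo11 probes are probes 21 to 23, and the first 3 Zmynd8 probes include probe 1. The last 3 Ktn1 probes likewise lie in the run described above. These slopes thus restate differences the genes were picked for, and no separate result is read from them. The part of this slope in the Ktn1 and Ipo11 values was not tested.

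**Figure D5:**
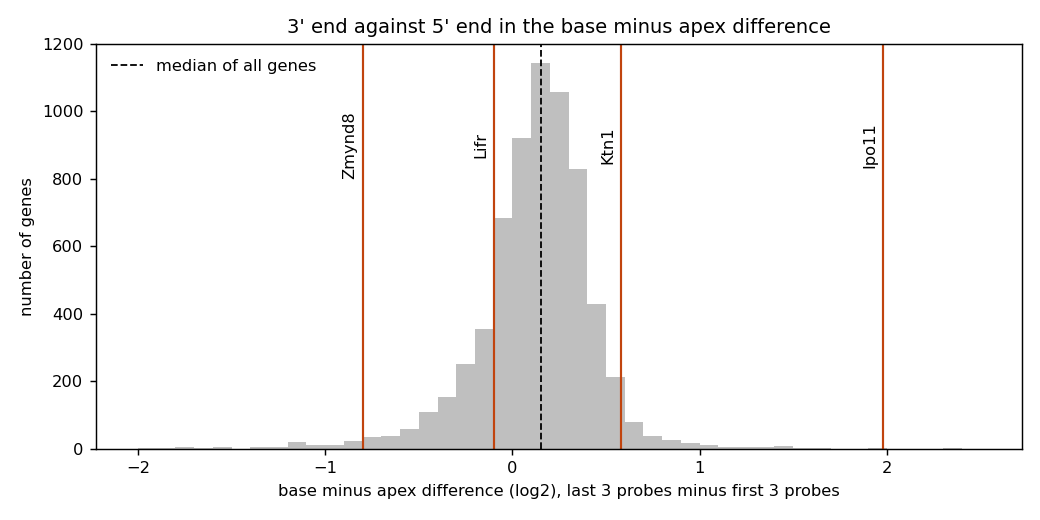
Number of genes (y axis) by the base minus apex difference of the last 3 probes minus that of the first 3 probes, in log2 units (x axis), over 6570 genes with 1 transcript identifier and 8 or more probes. The dashed line marks the median, 0.15, and red lines mark the 4 genes, with Ktn1 in the upper shoulder and Ipo11 beyond nearly all genes. The last 3 Ipo11 probes and the first Zmynd8 probe are those the genes were picked for, and Lifr has more than 1 transcript identifier. The axis leaves out the few genes beyond its ends.

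Sequence features that the choice of genes did not use were looked at next. The GC content was 38.3% for Zmynd8 probe 1, 43.3%, 45.0% and 35.0% for Ipo11 probes 21 to 23, 45.0% for Lifr probe 15 and 35.0% for Ktn1 probe 30, against a median of 45.0% over all probes. No other probe on the array shared 25 bases with any of these 6, on either strand. Ipo11 probe 23 and Lifr probe 20 were the only 2 of the 99 probes with a stop codon in all 3 forward frames, which held for 3.2% of all probes. Zmynd8 probe 1, the other Ipo11 probes shown, Lifr probe 15 and Ktn1 probe 30 each kept at least 1 frame open. RefSeq on GRCm38.p6 lists 5 start windows for Zmynd8, a number that 0.48% of 27025 genes reach, 2 each for Lifr and Ktn1 and 1 for Ipo11. No member probe shared 25 bases with a start window of its own gene, which says only that these windows do not hold the probe.

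Genes close by were followed in the same arrays. Inside the span of Zmynd8, 1 probe assigned to another transcript lay at chr2:165701785-165701844, between Zmynd8 probes 1 and 2, and differed by 0.06 log2 units (SE 0.228) between base and apex. The nearest gene, Eya2, a transcriptional coactivator of the eyes absent family, was 0.67 log2 units higher in the base (SE 0.0595, limma adjusted p = 2.25e-05) and did not reach 2-fold. Its probes span chr2:165490290-165597131, beyond the 3′ end of Zmynd8 and so at the end away from probe 1. Next to Ipo11, Dimt1, which modifies ribosomal RNA, differed by 0.09 log2 units and Kif2a, a kinesin that depolymerizes microtubules, by -0.31, neither 2-fold. No probe was named Lrrc70, a gene that lies within Ipo11. Next to Lifr, Egflam, which encodes the matrix protein pikachurin, was lower in the base by -1.03 log2 units (SE 0.115, limma adjusted p = 0.00021). Next to Ktn1, the autophagy gene Atg14 differed by -0.31.

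The gene signals most like each leading probe over the 12 arrays were found by Pearson's r among 16008 genes, as a description, since all points share turn and slide. For Zmynd8 probe 1 they were Pcolce2 (r = 0.9975), Sult5a1 (r = 0.9958) and Slco3a1 (r = 0.9949). For Ipo11 probe 23 they were Slco3a1 (r = 0.9946), Cthrc1 (r = 0.9924) and Hpgd (r = 0.9923). For Lifr probe 15 they were Fcgrt (r = 0.981), Map2k3 (r = 0.976) and Slc9a3r1 (r = 0.976). For Ktn1 probe 30 they were Mapk4 (r = 0.977), Serf2 (r = 0.975) and Ly6g6d (r = 0.972). Slco3a1, an organic anion transporter, was thus near both the Zmynd8 and the Ipo11 probe, and it differed by 1.00 log2 units between base and apex.

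The pathway of each gene was measured at the level of whole genes, where 915 of 19505 genes, or 4.69%, were called at an adjusted F p under 0.05 and 2-fold between 2 turns. Of 22 genes around the LIF receptor, 1 was called, higher in the base as were 1.12% of all genes. This was Il6ra, the receptor subunit for interleukin 6, which also signals through gp130, with a signal of 189 ± 6.27 in the apex, against 215 ± 14.3 in the middle and 428 ± 50.4 in the base (SD, n = 4), 1.18 log2 units higher in the base (limma adjusted p = 6.77e-06). Signals given with ± are geometric means over the 4 arrays of a turn, beside the SD of the unlogged signals. Il6st, which encodes gp130, had 1571 ± 55.8 in the apex and 1592 ± 28.8 in the base. The ligand Lif had 13.3 ± 2.97 in the apex and 11.3 ± 4.49 in the base, and Osm 13.1 ± 3.33 and 12.8 ± 1.46, so both ligands were dim and their arrays overlapped. The median over the 22 genes was 0.04 log2 units between base and apex, as over all genes, where it was 0.04.

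Of 25 genes of the importin beta family and the Ran system around Ipo11, 0 were called, with a median of -0.08, though 8 had an adjusted F p under 0.05 at differences below 2-fold, which 38.6% of all genes passed with no limit on the fold. These 8 went both ways, with Xpo1, Ipo5, Xpo5 and Xpo7 lower in the base and Ube2e3, Ipo13, Ran and Ube2e1 higher. Xpo1 had the lowest adjusted p (-0.39 log2 units, limma adjusted p = 0.000383). Ube2e3, named above as cargo of importin-11, differed by 0.42 log2 units (limma adjusted p = 0.000832). Ipo13 had 815 ± 51.9 in the apex and 1021 ± 92.3 in the base (limma adjusted p = 0.00667). Of 26 measured partners of Zmynd8, NuRD subunits and acetyl-lysine readers, 1 was called. It was Chd5, a NuRD helicase found chiefly in neurons, with 197 ± 26.8 in the apex and 87.4 ± 32.0 in the base, lower in the base by -1.17 log2 units (limma adjusted p = 0.00267). The median of these 26 genes was 0.04. Of 24 measured kinectin partners, 2 were called, both heavy chains of the motor kinesin-1 that neurons use. Kif5a had 410 ± 46.4 in the apex and 156 ± 84.6 in the base (-1.40 log2 units, limma adjusted p = 0.00524), and Kif5c 852 ± 88.5 and 249 ± 174 (-1.78 log2 units, limma adjusted p = 0.00356). The third heavy chain, Kif5b, which most cells use, had 4145 ± 223 in the apex and 4492 ± 247 in the base, with overlap.

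Of 46 measured splicing regulators, 4 were called, all lower in the base, against 3.27% of all genes called in that direction. They were Elavl2 (-1.20 log2 units), Elavl3 (-1.13) and Elavl4 (-1.37), which are RNA-binding proteins of neurons, and Rbm24 (-1.18), a regulator known from muscle and from hair cells, with limma adjusted p of 0.00542, 0.00708, 0.0169 and 0.000124. The Elavl4 arrays overlapped between apex and base, at 906.5 ± 119 and 349.7 ± 285. The median of the list was -0.13 log2 units.

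Markers of cell types moved with the turn beside these results. Of 9 neuron markers, 7 were called, all lower in the base. Of the rest, Prph was higher in the base below 2-fold (0.34 log2 units, limma adjusted p = 0.00201), and Gap43 overlapped between apex and base. The summed signal of the list ran from 35980 to 46560 in the apex, against 34180 to 61060 in the middle and 6665 to 30220 in the base. Of 11 hair cell markers, 9 were called (3 with normexp background correction), all lower in the base, with sums of 22830 to 26730 in the apex and 5140 to 13350 in the base. Of 7 fibrocyte markers, 1 was called, Otos, 1.28 log2 units higher in the base, but they did not all go 1 way: below 2-fold, Cav1 (-0.69 log2 units, limma adjusted p = 0.000471) and S100a6 (-0.64, limma adjusted p = 0.015) were lower in the base. The fibrocyte sums, from 286700 to 312100 in the apex and 558100 to 621400 in the base, add up signals and so weigh bright genes most. Stria vascularis markers had 0 of 9 called (5 with spike-in scaling), 8 of them at an adjusted F p under 0.05, and sums of 53030 to 60190 in the apex and 78690 to 97010 in the base. In tissue pieces such as these, fewer cells of a type and less RNA per cell cannot be told apart. Of 9 supporting cell markers, 4 were called, all lower in the base, while Gjb2 (0.52 log2 units, limma adjusted p = 0.00155) and Gjb6 (0.77, limma adjusted p = 0.000115) were higher there below 2-fold. The sums of this list were higher in the base, at 222800 to 254800 in the apex and 314900 to 370200 in the base. Of the remaining lists, Schwann cells had 1 of 7 called, lower in the base, bone had 1 of 10 (Dmp1, higher in the base), and macrophage, blood and marrow, muscle and endothelium lists had 0 called. The part of cell makeup in the Zmynd8, Ipo11, Lifr and Ktn1 probes was not tested.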

How the data were processed

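The data are 12 single-color Agilent exon arrays. Per the file headers, the authors' software was Agilent Feature Extraction 10.7.3.1, and the deposited values used are its background-corrected intensity per spot; the value table deposited for the series was identical to it. RNA of 25 ng per sample was amplified with a whole-transcript kit. Here, 7914 of 180880 spots were controls and left out, as were 119 probes flagged on any array. Each array was scaled to a 75th percentile of 641.3 (534.6 to 722.1 before scaling, with 77.4% to 81.4% of spots well above background), log2 transformed, and repeated spots averaged. The number of arrays limits the precision. Gene signals are means over probes. limma 3.58.1 (R 4.3.3, data.table version 1.17.8) was fitted to all 12 arrays, over 159900 relative probe signals and 19505 genes, with Benjamini-Hochberg adjustment, and was tested on simulated data. The study describes the arrays of a turn as independent mouse samples. It names 4 mice for all turns, so arrays of different turns are not independent animals, and the main fits leave this out.

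Members and gene lists were chosen with earlier results of these data known. Probes were described one by one where their relative signal differed by 1 log2 unit between 2 turns, up to 3 per gene, and always the largest of each gene. Also named are genes within 100 kb, list genes called, and the 3 genes most correlated with each leading probe. Other genes and probes named were chosen after their values were seen. Same-numbered arrays of different turns correlated at a mean of 0.0949 (-0.0367 to 0.227) in their deviations from the turn means. This was above 0.1 in 6 of 12 pairs. Arrays with different numbers had a mean of -0.0313 (-0.261 to 0.254), above 0.1 in 2 of 36 pairs. Since the labels tie no number to an animal, the main fits did not treat arrays as paired, and pairing by animal was not tested.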

Additional observations from a re-analysis of the deposited data

Results flagged for a closer look

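Within a turn, 30 groups of 4 arrays were looked at for 1 array far from the other 3 by Dixon's test, and 4 had such an array. Chance gives about 1 in 20 for independent groups. These groups are not independent, since 3 of the 4 were the same array at neighboring Ipo11 probes. In the apex, replicate 4 stood above the other apical arrays in the relative log2 signal of Ipo11 probe 21 (0.9765, others 0.6789 to 0.7193), probe 22 (1.243, others 0.9843 to 1.009) and probe 23 (4.678, others 4.335 to 4.356). In the base, replicate 4 stood above the others at Lifr probe 15 (0.7652, others 0.2668 to 0.337). Apex replicate 4 also had the highest 3′ minus 5′ signal of the apical arrays, 1.231 against 1.114 to 1.143. Without apex replicate 4 the Ipo11 probe 23 difference between base and apex was 1.994, and without base replicate 4 the Lifr probe 15 difference was 1.139.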

How the results depend on the processing

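The relative differences between base and apex were positive for the leading probe of all 4 genes under every alternative run. Scaling to the median or to spike-in probes cannot move them, so those runs add nothing here. For Ipo11 probe 23, quantile normalization gave 1.563, the median of the other probes as reference 2.13, and leaving probes 21 and 22 out of the reference, chosen after seeing the data, 2.085. Normexp background correction gave 2.521 for Zmynd8 probe 1, and the median reference 0.9905 for Ktn1 probe 30. Leaving out 1 array gave 2.81 to 3.02 for Zmynd8, 1.841 to 1.994 for Ipo11, 1.139 to 1.352 for Lifr and 0.7778 to 0.8838 for Ktn1. Probes called over the array numbered 396 with normexp, 765 with 16 added before log2, 2649 with diffSplice, and 930 (without base replicate 2) to 2098 (without base replicate 3) when 1 array was left out. Genes called numbered 1564 with spike-in scaling, 331 with normexp, 602 with 16 added, and 773 to 1087 without 1 array. Spike-in scaling moved the median base minus apex difference of all genes from 0.04 to 0.52 and turned the gene-level differences of Lifr to 0.1163 and of Ktn1 to 0.2083, both still below that median. The gene-level differences of Zmynd8 and Ipo11, near 0, also turned, to 0.09 and 0.10 with scaling to the median and to 0.46 and 0.47 with spike-in scaling. Il6ra was not called with normexp, and Chd5 was not called with normexp, spike-in scaling or 16 added. Splicing regulators called numbered 1 with normexp, with spike-in scaling and without base replicate 2, and 2 with 16 added; 1 of the 2 kinectin partners was called with spike-in scaling. With normexp, hair cell markers called numbered 3 and supporting cell markers 2, and with spike-in scaling hair cell markers 7 and stria markers 5. Fibrocyte markers called numbered 4 with spike-in scaling, 3 with scaling to the median and 0 with quantile normalization. With the replicate number as a block, 1380 probes and 919 genes were called, and the block changed no list's count. Zmynd8 probe 1 stood at 2.951, which a block cannot move, as every turn held every replicate number. The cause of these shifts was not tested.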
